A study of Mus musculus with 7 samples.

Results

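Tnfrsf9 and 9 other receptor genes of the tumour necrosis factor (TNF) superfamily were examined in follicular dendritic cells (FDCs) of mice with and without Ngfr, the gene of the neurotrophin receptor p75, which is itself a member of this receptor family. The set was Tnfrsf9, Cd40, Tnfrsf13c, Tnfrsf12a, Ltbr, Tnfrsf1b, Fas, Tnfrsf21, Tnfrsf1a and Tnfrsf11b, and each symbol matched 1 row, giving 10 of the 21176 genes in the deposited table. The genes were picked by family membership, with the difference between Ngfr KO and WT already known. Their differences between the genotypes are therefore descriptions, with no p-value of their own, and the counts of calls given for them support nothing. RNA of FDCs, stromal cells that display antigen to B cells in follicles, was sequenced in 4 independent samples from WT mice and 3 from Ngfr KO mice. The cells of both groups were sorted from popliteal lymph nodes of male mice that had not been immunized, 8 to 12 weeks old, and each sample pooled nodes from a number of animals. The labels give neither the strain nor the kind of Ngfr allele.

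TNF receptors are surface proteins with cysteine-rich ectodomains that bind trimeric ligands. Members with TRAF-binding tails recruit TRAF adaptors and activate NF-κB, members with a death domain can also start cell death, and a soluble member acts as a decoy. FDCs depend on this family: signals from lymphotoxin through the receptor encoded by Ltbr, and from TNF through the receptor encoded by Tnfrsf1a, are needed to form and keep FDC networks.

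The libraries held 17244925 to 21538400 reads, and a normalised value of 1 was worth 230 to 295 reads, depending on the sample. The 3 Ngfr KO libraries were all deeper than the 4 WT libraries, and the values are scaled for depth. Ngfr itself was covered by 97 to 298 reads in WT and by 46 to 104 reads in Ngfr KO, so reads of the targeted gene were present in all 3 Ngfr KO samples. After scaling, the highest Ngfr KO value was below the lowest WT value. Values were 0.872 ± 0.421 (SD) over the 4 WT samples and 0.281 ± 0.087 (SD) over the 3 Ngfr KO samples. All 13 FDC markers examined, among them Cr2, Cxcl13, Clu and Mfge8, were detected in each of the 7 samples. Their summed value was 1824 to 5107 in WT, lowest in replicate 1, and 7870 to 10390 in Ngfr KO. In bulk samples of this kind, a smaller share of cells of a type and less RNA per cell cannot be told apart.

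Promoter windows were available from RefSeq (GRCm38.p6) for 8 of the 10 genes. The windows below are shown because they belong to the receptor with the largest log2 difference among those past the filter described below (Tnfrsf9, which has a pair of annotated starts), to the most abundant receptor (Fas) and to a receptor whose groups overlapped (Ltbr). Each holds the 250 bases before the start, 5′ to 3′ on the gene's strand, and capitals mark matches to the NF-κB consensus motif or to the AP-1 motif TGANTCA, searched on both strands.
Tnfrsf9, upstream start, chr4:150919905-150920154, plus strand: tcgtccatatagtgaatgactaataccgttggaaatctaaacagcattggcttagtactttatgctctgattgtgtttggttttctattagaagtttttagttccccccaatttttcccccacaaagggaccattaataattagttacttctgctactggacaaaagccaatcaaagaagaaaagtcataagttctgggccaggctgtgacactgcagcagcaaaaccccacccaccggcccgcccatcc
Tnfrsf9, downstream start, chr4:150927749-150927998, plus strand: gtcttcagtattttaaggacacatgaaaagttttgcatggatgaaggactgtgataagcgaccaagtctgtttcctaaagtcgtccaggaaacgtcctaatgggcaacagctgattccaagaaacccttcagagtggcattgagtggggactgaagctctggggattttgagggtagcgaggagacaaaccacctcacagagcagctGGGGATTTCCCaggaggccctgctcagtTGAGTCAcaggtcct
Fas, chr19:34290409-34290658, plus strand: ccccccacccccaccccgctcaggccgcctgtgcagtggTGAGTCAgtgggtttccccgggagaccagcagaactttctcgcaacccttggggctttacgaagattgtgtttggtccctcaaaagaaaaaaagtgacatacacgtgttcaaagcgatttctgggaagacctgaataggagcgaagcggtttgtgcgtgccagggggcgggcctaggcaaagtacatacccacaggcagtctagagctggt
Ltbr, chr6:125313886-125314135, minus strand: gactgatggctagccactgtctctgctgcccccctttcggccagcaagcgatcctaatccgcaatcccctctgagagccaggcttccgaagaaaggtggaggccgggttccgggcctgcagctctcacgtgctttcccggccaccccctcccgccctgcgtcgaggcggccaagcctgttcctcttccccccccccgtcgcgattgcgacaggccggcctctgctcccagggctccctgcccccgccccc
The downstream Tnfrsf9 window held 2 overlapping matches to the NF-κB motif, from 43 to 33 bases before the start, and 1 AP-1 match from 15 to 9 bases before it. The Fas window held 1 AP-1 match, from 211 to 205 bases before the start. No match was found in the upstream Tnfrsf9 window or in those of Ltbr, Tnfrsf12a, Tnfrsf13c, Tnfrsf1b, Tnfrsf1a and Tnfrsf21. Among all 32851 windows of this length, 7.25% held the NF-κB motif, 6.75% the AP-1 motif and 0.356% both. The start of Tnfrsf9 in GENCODE M21, 150914562, lies before both of its windows. Values per gene do not show which Tnfrsf9 start was used, and a match is not evidence of binding.

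Tnfrsf9 (ENSMUSG00000028965, chromosome 4, 150914562 to 150946102, plus strand) encodes 4-1BB, also called CD137, a costimulatory receptor known mainly from activated T cells. Its normalised value was 0.128, 1.33, 1.69 and 0.503 in WT replicates 1 to 4 and 11.2, 19.9 and 12.0 in Ngfr KO replicates 1 to 3. There was no overlap: the lowest Ngfr KO sample lay far above the highest WT sample, although WT replicates differed widely among themselves. The reads behind these values were 33 to 388 in WT against 3003 to 5881 in Ngfr KO. The mean was 0.913 ± 0.721 (SD) over the 4 WT samples and 14.4 ± 4.8 (SD) over the 3 Ngfr KO samples, 15.8 times higher. The log2 change on log2(value + 1) was 3.05 (SE 0.29), and edgeR on the recovered reads, which is not compressed by that pseudocount, gave 4.06.

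Cd40 (ENSMUSG00000017652, chromosome 2, 165055627 to 165072948, plus strand) encodes the receptor through which helper T cells license B cells, and it is also made by stromal cells. Values were 0.572, 0.614, 0.830 and 1.07 in WT and 3.65, 5.64 and 4.64 in Ngfr KO. All 3 Ngfr KO samples were above all WT samples, and the spread within each genotype was small beside the gap. The mean value was 6.02 times higher in Ngfr KO, at 4.64 ± 1.00 (SD, n = 3) against 0.771 ± 0.228 (SD, n = 4). On the log2 scale the change was 1.67 (SE 0.17) with limma and 2.66 with edgeR.

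Tnfrsf13c (ENSMUSG00000068105, chromosome 15, 82221743 to 82224369, minus strand) encodes the BAFF receptor, a survival receptor of B cells. Values were 0.191, 0.374, 0.269 and 0.271 in WT and 2.23, 1.08 and 0.613 in Ngfr KO. Both groups were separate, and the Ngfr KO samples were spread more widely than the WT samples. Only 2 samples reached a value of 1, so the gene did not pass the filter on low values. Mean values were 0.276 ± 0.075 (SD) over the 4 WT samples and 1.31 ± 0.83 (SD) over the 3 Ngfr KO samples, a ratio of 4.72. Without Ngfr KO replicate 1 the ratio was 3.05. The edgeR log2 change was 2.32.

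Tnfrsf12a (ENSMUSG00000023905, chromosome 17, 23675445 to 23677468, minus strand) encodes Fn14, the receptor for the cytokine TWEAK. Values were 0.914, 0.797, 2.01 and 0.858 in WT and 2.11, 1.65 and 3.61 in Ngfr KO. The groups overlapped, because WT replicate 3 was higher than Ngfr KO replicate 2. The mean was 1.15 ± 0.58 (SD) over the 4 WT samples and 2.46 ± 1.03 (SD) over the 3 Ngfr KO samples, and the log2 change was 0.68 (SE 0.22), which was 0.46 without Ngfr KO replicate 3.

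Ltbr (ENSMUSG00000030339, chromosome 6, 125306571 to 125313885, minus strand), the lymphotoxin β receptor, had values of 1.49, 1.74, 1.05 and 2.09 in WT and 1.15, 1.75 and 1.42 in Ngfr KO. All Ngfr KO values lay within the range of the WT values. The mean was 1.59 ± 0.44 (SD) over the 4 WT samples and 1.44 ± 0.30 (SD) over the 3 Ngfr KO samples, a log2 change of -0.08 (SE 0.17). Tnfrsf1b (ENSMUSG00000028599, chromosome 4, 145213463 to 145246870, minus strand) encodes TNFR2, the TNF receptor without a death domain. It had values of 1.52, 1.51, 1.86 and 2.10 in WT and 1.61, 2.09 and 2.11 in Ngfr KO. The groups overlapped here too, with a log2 change of 0.10 (SE 0.15).

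Of the receptors with a death domain, Fas (ENSMUSG00000024778, chromosome 19, 34290666 to 34327772, plus strand) is the receptor of Fas ligand and can trigger apoptosis. Its values were 3.48, 9.28, 9.44 and 9.86 in WT and 34.3, 37.2 and 39.1 in Ngfr KO. Ngfr KO samples agreed closely with each other and lay above all WT samples, of which replicate 1 was far below the rest. The mean was 8.02 ± 3.03 (SD) over the 4 WT samples and 36.9 ± 2.4 (SD) over the 3 Ngfr KO samples, 4.60 times higher. The log2 change was 2.15 (SE 0.28), and edgeR gave 2.27. Fas was covered by 894 to 10966 reads per sample.

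Tnfrsf21 (ENSMUSG00000023915, chromosome 17, 43016555 to 43089189, plus strand) encodes death receptor 6. Values were 1.42, 3.64, 3.34 and 4.04 in WT and 8.91, 13.8 and 7.68 in Ngfr KO. The groups were separate, and WT replicate 1 was again the lowest sample. The mean was 3.11 ± 1.16 (SD) over the 4 WT samples and 10.1 ± 3.2 (SD) over the 3 Ngfr KO samples, 3.25 times higher, and the log2 change was 1.45 (SE 0.26), or 1.78 with edgeR.

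Tnfrsf1a (ENSMUSG00000030341, chromosome 6, 125349362 to 125362484, plus strand) encodes TNFR1, the main TNF receptor of stromal cells. Values were 5.44, 5.14, 5.09 and 5.23 in WT and 4.67, 7.89 and 5.68 in Ngfr KO. WT replicates were almost equal, and the Ngfr KO samples lay on both sides of them. The mean was 5.23 ± 0.16 (SD) over the 4 WT samples and 6.08 ± 1.64 (SD) over the 3 Ngfr KO samples, a log2 change of 0.16 (SE 0.17).

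Tnfrsf11b (ENSMUSG00000063727, chromosome 15, 54250619 to 54278484, minus strand) encodes osteoprotegerin, a secreted decoy that binds RANKL and TRAIL. Values were 0.0156, 0.0187, 0.0608 and 0.164 in WT and 0.780, 1.67 and 1.10 in Ngfr KO. The transcript was close to absent from WT libraries, with 4, 5, 14 and 43 reads, and had 215 to 492 reads in the Ngfr KO libraries. The ratio of mean values was 18.2, the highest of the 10 genes, but it rests on few WT reads and was 37.3 without WT replicate 4. The gene did not pass the filter, and the edgeR log2 change was 4.25.

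**Figure D1:**
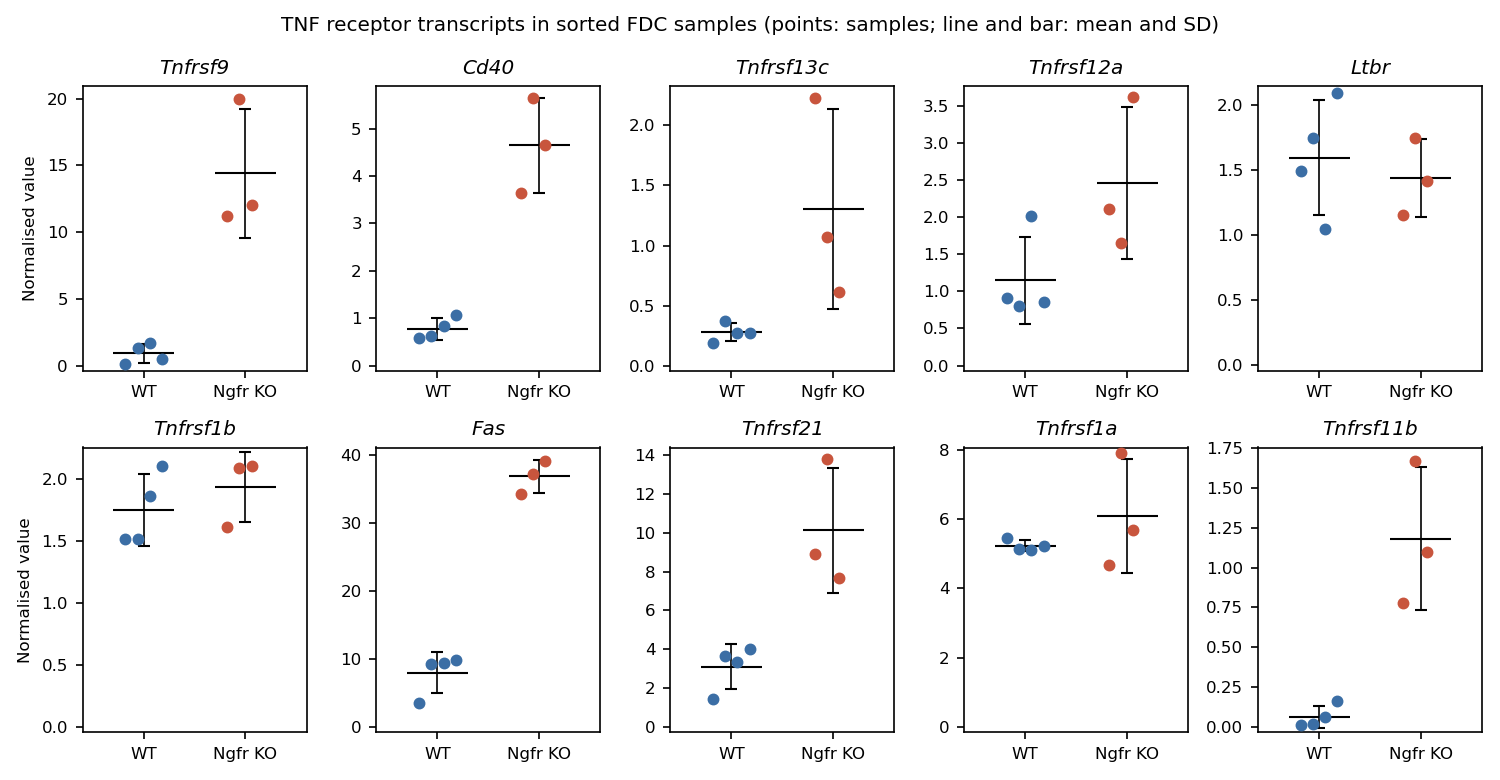
Normalised value (vertical axis, linear, one scale per gene) of the 10 receptor transcripts in WT (4 points) and Ngfr KO (3 points); each point is 1 sample, and the line and bar give the mean and SD. Tnfrsf9 sits at 0.128 to 1.69 in WT and at 11.2 to 19.9 in Ngfr KO, while Ltbr, Tnfrsf1b, Tnfrsf1a and Tnfrsf12a overlap.

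In 6 of the 10 genes every Ngfr KO sample was above every WT sample, and in none was every sample below. WT replicate 1, which had the lowest FDC marker sum, was the lowest WT sample in all 6, and without it the ratio of mean values was 12.3 for Tnfrsf9, 5.55 for Cd40, 4.28 for Tnfrsf13c, 3.87 for Fas, 2.75 for Tnfrsf21 and 14.6 for Tnfrsf11b. Among all genes in the table, 12.5% had every Ngfr KO sample above, and among those past the filter 22.6%. Of the 8 receptors past the filter, 5 were called higher by limma at an adjusted p under 0.05 (Tnfrsf9, Cd40, Fas, Tnfrsf21 and Tnfrsf12a), where 18.3% of the 8326 genes tested were called higher. The filter keeps genes that reach 1 in 3 or more samples, which a gene can meet through Ngfr KO alone. Of these 5, Tnfrsf9, Cd40 and Tnfrsf12a met it only through Ngfr KO, where they were high, so this count is partly set by the filter. edgeR called 6 of the 10 higher, the same as limma except that Tnfrsf12a was not called and Tnfrsf13c and Tnfrsf11b were, where 8.67% of 16751 genes were called higher and 6.55% lower. Because the genes were picked with these differences in view, the counts describe the set only. The Tnfrsf12a call was lost without WT replicate 1, 2 or 4 or without Ngfr KO replicate 1 or 3.

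Levels of different genes were compared per kilobase of exon. In WT, Fas had the highest mean value per kilobase, 3.89 ± 1.47 (SD, n = 4), followed by Tnfrsf1a with 2.02 ± 0.06, and the sample ranges of these genes overlapped. Tnfrsf21 came next with 0.757 ± 0.283, below every Tnfrsf1a sample. From Tnfrsf21 down through Ltbr, Tnfrsf12a, Tnfrsf1b, Tnfrsf9, Cd40 and Tnfrsf13c, each gene overlapped the next in rank. Tnfrsf11b was last with 0.0230 ± 0.0246. In Ngfr KO, Fas was again first, at 17.9 ± 1.2 per kilobase (SD, n = 3), and Tnfrsf9 followed with 5.29 ± 1.77. Neither overlapped the next gene in rank, and Tnfrsf9 had been the seventh in WT. Tnfrsf21 (2.46 ± 0.78) and Tnfrsf1a (2.35 ± 0.63) came after these with overlapping ranges, and Ltbr (0.611 ± 0.126) and Tnfrsf1b (0.507 ± 0.073) were near the end of the order, above Tnfrsf11b.

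**Figure D2:**
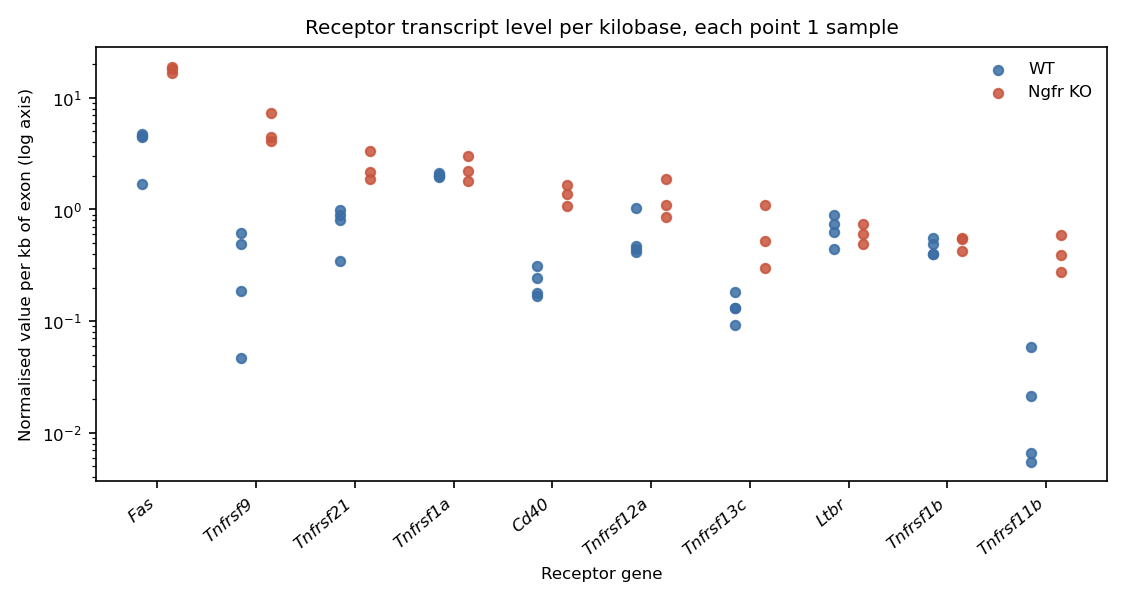
Normalised value per kilobase of exon (log axis) of each receptor transcript, with 1 point per sample, WT and Ngfr KO side by side and genes ordered by their Ngfr KO mean. Fas and Tnfrsf9 lead in Ngfr KO with means of 17.9 and 5.29, whereas Fas and Tnfrsf1a lead in WT with 3.89 and 2.02.

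Since the FDC markers were also higher in Ngfr KO, with all but Cxcl13 of the 13 called higher by limma, 12 in number (against 18.3% of all genes), each receptor was set against their summed value. Per 1000 units of that sum, Tnfrsf9 had 0.228 ± 0.168 (SD) over the 4 WT samples and 1.63 ± 0.60 (SD) over the 3 Ngfr KO samples, a ratio of 7.15 in place of 15.8. Groups stayed apart with Ngfr KO above for Tnfrsf9, Tnfrsf11b (ratio 8.83), Cd40 (2.37) and Fas (1.96). Fas per 1000 units of the full sum was even across WT, at 1.91 to 2.35 with replicate 1 included, and was 3.77 to 4.36 in Ngfr KO. Tnfrsf21, Tnfrsf13c and Tnfrsf12a had overlapping groups on this scale, with ratios of 1.40, 1.96 and 0.793. Ltbr (ratio 0.337), Tnfrsf1b (0.417) and Tnfrsf1a (0.419), 3 of the 4 receptors whose own values overlapped between genotypes, were below in every Ngfr KO sample. The sum that divides them was itself 2.39 times higher in Ngfr KO, with separate groups. A gene with equal values in both genotypes therefore falls on this scale, and these 3 ratios do not show that the transcripts fell. Cxcl13, Clu and Mfge8 made up 87.1% to 91.8% of the sum. Without them the ratio was 5.82 for Tnfrsf9, 6.73 for Tnfrsf11b, 2.00 for Cd40, 1.61 for Fas and 0.285 for Ltbr. The same genes were separated in the same directions. The evenness of Fas across WT was lost with this shorter sum. Per 1000 units of it, WT replicates 1 to 4 had 15.4, 25.4, 20.9 and 23.6. Replicate 1 was thus lowest again, and Ngfr KO had 33.6 to 35.3. The share of all genes whose groups were separate on this scale was not computed, so the separations describe the receptors only. These ratios were computed after the values had been seen, and the part of FDC content in the receptor differences was not tested.

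**Figure D3:**
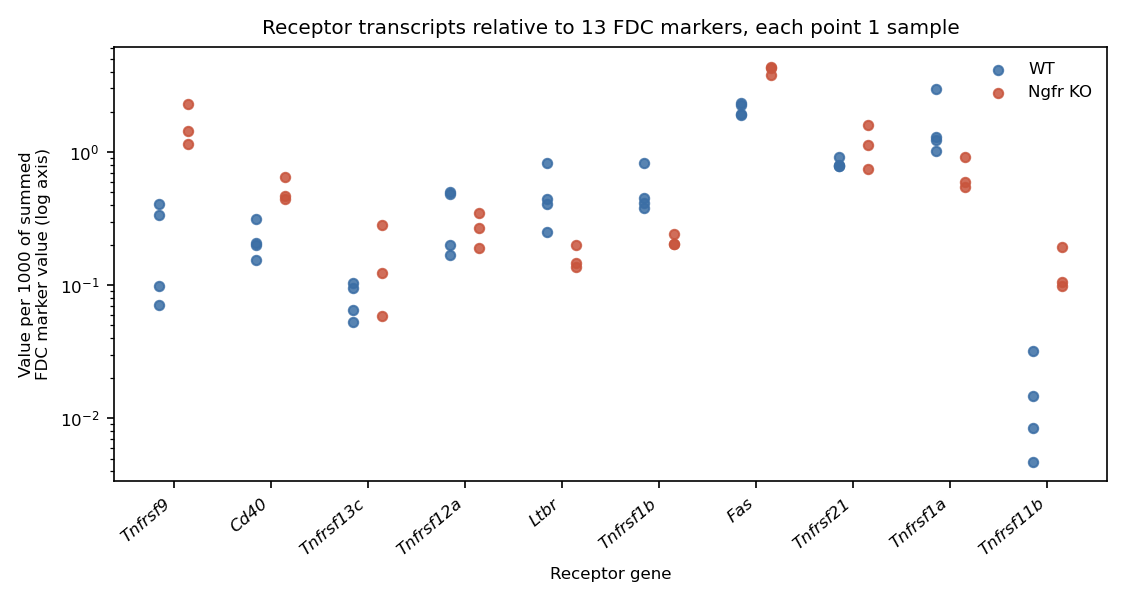
Value of each receptor transcript per 1000 units of the summed value of 13 FDC markers (log axis), with 1 point per sample. Tnfrsf9, Cd40, Fas and Tnfrsf11b are higher in all Ngfr KO samples, and Ltbr, Tnfrsf1b and Tnfrsf1a are lower in all of them. The FDC marker sum is itself higher in every Ngfr KO sample, so a gene with equal values in both genotypes falls on this scale.

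Several of these receptors are also made by lymphocytes, so markers of other cell types were summed in each sample. B-cell markers, 12 genes including Cd79a, Cd79b and Ms4a1, summed to 15.9 to 23.6 in WT and to 28.8, 36.0 and 16.2 in Ngfr KO replicates 1 to 3, with 1 of 5 tested, Ms4a1, called higher by limma (adjusted p = 0.0472, groups overlapping), where 18.3% of all genes were. edgeR did not call Ms4a1 (adjusted p = 0.0693) but called Pou2af1 (adjusted p = 0.0434), whose mean value was 2.61 times higher in Ngfr KO with separate groups. Across the same Ngfr KO replicates 1 to 3, Tnfrsf13c was 2.23, 1.08 and 0.613, and Cd40 was 3.65, 5.64 and 4.64. The 6 germinal centre B-cell markers used other than Fas summed to 1.24 to 2.50 in WT against 5.01 to 5.12 in Ngfr KO. S1pr2 of that list had a log2 change of 0.73 (limma adjusted p = 0.0192, edgeR adjusted p = 0.0555). It was the only gene of the list past the filter, which it met only through Ngfr KO, where it was high. Rgs13 and Mef2b, both at 0 in at least 1 WT sample, were called higher by edgeR (adjusted p = 0.0357 and 0.0157), and DESeq2 did not call Rgs13 (adjusted p = 0.178). Bcl6 overlapped, with a ratio of 0.862. T-cell markers summed to 4.46 to 12.3 in WT against 4.13 to 11.1 in Ngfr KO, and those of regulatory and activated T cells to 0.817 to 2.20 and 1.12 to 2.61. Both T-cell sums overlapped between the genotypes. NK-cell markers reached at most 4.08, with Nkg7, Prf1 and Klrd1 at 0 in some samples. The part of lymphocyte transcripts in the receptor values was not tested.

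Myeloid markers summed to 3.95 to 10.04 in WT against 10.3 to 46.8 in Ngfr KO. Of 3 tested, 2 were called higher by limma, Lyz2 and Cd14, where 18.3% of all genes were. Cd68 did not pass the filter and was separate between the groups, with a ratio of 3.14. DESeq2 called Cd68 higher (adjusted p = 0.0152) and edgeR did not (adjusted p = 0.0567). Itgam, Adgre1, Itgax and Tyrobp were at 0 in some samples. Cd14 was separate between the groups, whereas Lyz2 overlapped, was not called by edgeR (adjusted p = 0.0576), and had a ratio of 4.81, or 2.22 without Ngfr KO replicate 3. Csf1r and Siglec1 had ratios of 0.759 and 0.610 with overlapping groups. Blood endothelial markers were lower, at 113 to 158 in WT against 27.7 to 49.3 in Ngfr KO, with 11 of 11 tested genes called lower (15.8% of all genes were). Vwf, of the 12 listed the gene that did not pass the filter, overlapped between the groups with a ratio of 0.949 (edgeR adjusted p = 0.991). Lymphatic endothelial markers were 43.1 to 111.8 and 18.5 to 35.8, with 4 of 4 called lower. Lyve1 of these had overlapping groups (limma adjusted p = 0.0465) and was not called by edgeR (adjusted p = 0.0975). Without Lyve1, computed after the values had been seen, the lymphatic sums were 26.85 to 49.26 and 8.21 to 9.82. Reticular stroma summed to 35.3 to 79.3 in WT against 84.9 to 124 in Ngfr KO. Ccl19 made up most of that sum, and without it, computed after the values had been seen, the groups overlapped at 14.5 to 26.6 and 18.3 to 25.8. Of 5 tested, 2 were called higher by limma, Ccl19 and Pdgfra, where 18.3% of all genes were. Pdgfra had separate groups and a ratio of 1.56 (limma adjusted p = 0.044), and edgeR did not call it (adjusted p = 0.0828). Pericyte and smooth muscle markers summed to 17.6 to 50.2 in WT and to 32.5 to 63.3 in Ngfr KO. Without Rgs5, computed after the values had been seen, the groups were separate at 5.33 to 10.5 and 11.9 to 14.3. Of 3 tested, 1 was called higher by limma, Myh11 (adjusted p = 0.0336), where 18.3% of all genes were. edgeR did not call Myh11 (adjusted p = 0.0732).

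**Figure D4:**
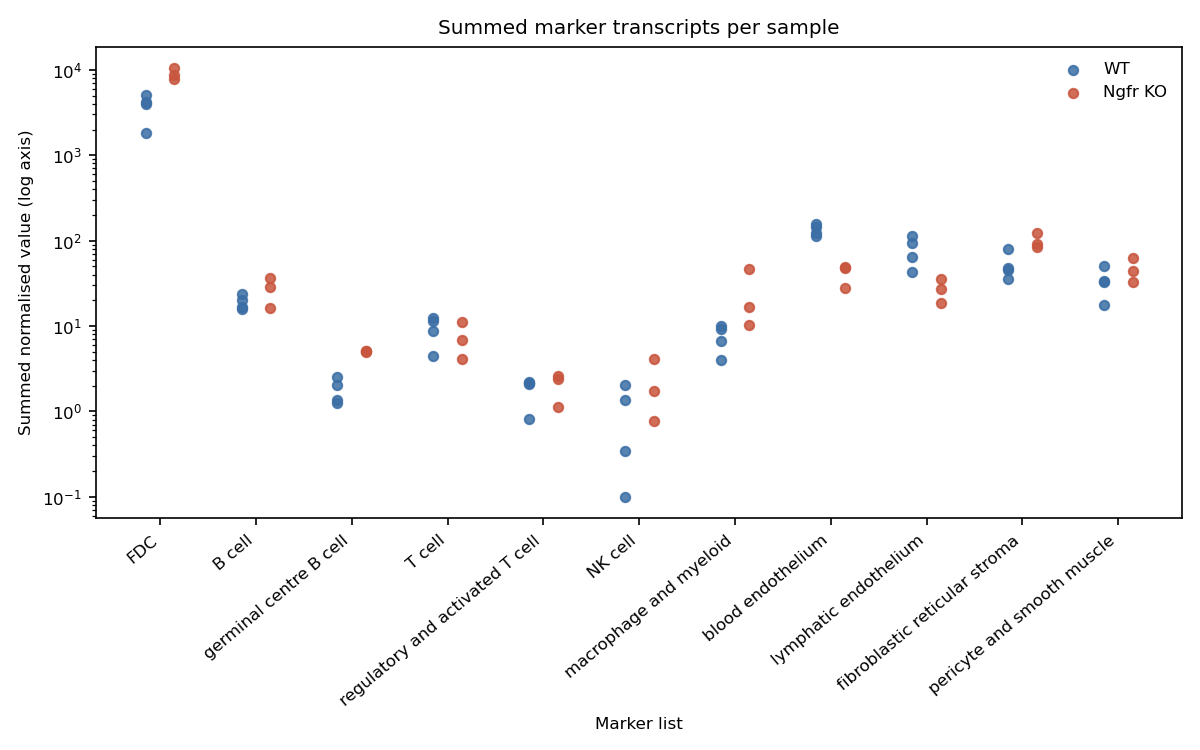
Summed normalised value (log axis) of the marker genes of 11 cell types, with 1 point per sample. FDC, germinal centre B-cell, myeloid and reticular stroma sums are higher in every Ngfr KO sample, both endothelial sums are lower in every one, and the remaining sums overlap. The reticular stroma sums overlap without Ccl19, and the pericyte and smooth muscle sums are separate without Rgs5.

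The genes whose values followed Tnfrsf9 most closely across the 7 samples were Tcp1, a chaperonin subunit (Pearson r = 0.997), Cat, the hydrogen peroxide-degrading enzyme catalase (0.995), Rce1, a protease that processes prenylated proteins (0.994), Tbcc, a tubulin folding cofactor (0.993), and Idi1, an enzyme of isoprenoid synthesis (0.993). Cat had 5.29 ± 1.34 (SD) over the 4 WT samples and 16.4 ± 2.5 (SD) over the 3 Ngfr KO samples. These correlations compare log2(value + 1) over 8323 other gene symbols and include the difference between the genotypes. Among the receptors, r with Tnfrsf9 was 0.962 for both Cd40 and Fas, 0.945 for Tnfrsf21, 0.724 for Tnfrsf12a, 0.491 for Tnfrsf1a, 0.407 for Tnfrsf1b and -0.222 for Ltbr. Fas, Cd40 and Tnfrsf21 held ranks 221, 223 and 421 among the 8323, so many other genes followed Tnfrsf9 more closely.

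Of the rest of the receptor family, 17 genes, 7 passed the filter and 10 did not. By limma 2 of the 7 were higher and 1 was lower, where 34.2% of all genes tested were called. Of these 3 calls, Tnfrsf19 met the filter only through Ngfr KO and Tnfrsf22 only through WT, the groups where they were high. Without a filter 1 of the 17 genes was called, where 2126 of all 21176 genes were called. The median log2 change of the 7 was -0.10, against 0.02 over all genes. Relt, an orphan receptor of the family, had values of 2.05, 2.94, 3.86 and 4.38 in WT and 8.89, 13.3 and 9.14 in Ngfr KO. It rose in Ngfr KO by a log2 change of 1.42 (limma, SE 0.22 and adjusted p = 0.000925), with separate groups.

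Tnfrsf19, also called TROY, reached 1.35 to 1.58 in the Ngfr KO samples, all above the WT samples at 0.533 to 1.09. It rose by 0.48 (limma, SE 0.15 and adjusted p = 0.0260), and the call was lost without WT replicate 1 or any 1 Ngfr KO replicate (limma adjusted p up to 0.0728). Tnfrsf22, a decoy receptor for TRAIL, was 0.767 to 0.827 in Ngfr KO, below all WT samples at 1.19 to 1.91, a log2 change of -0.46 (limma, SE 0.15 and adjusted p = 0.0289). Its call was lost without WT replicate 1 or 2 or any 1 Ngfr KO replicate (limma adjusted p up to 0.0862) and with edgeR (adjusted p = 0.0537). Its neighbours Tnfrsf23 and Tnfrsf26 on chromosome 7 are close paralogs. The ratio of mean values was 0.745 for Tnfrsf23, with overlapping groups, and 0.394 for Tnfrsf26, which was below WT in every Ngfr KO sample and called lower by DESeq2 (adjusted p = 0.0348) but not by edgeR (adjusted p = 0.0926). Which reads the 3 genes share was not tested, and how the counting divided shared reads is not given in the sources used here.

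Tnfrsf11a, the receptor RANK, was 2.36 to 5.80 in WT against 1.74 to 2.43 in Ngfr KO, and Tnfrsf10b and Eda2r had log2 changes of -0.10 and 0.21 (limma adjusted p = 0.0964, 0.676 and 0.514 in that order). Lymphocyte receptors of the family stayed low: Tnfrsf4 and Cd27 were at most 0.863 and 0.902 in any sample, Tnfrsf18 at most 0.472, and Tnfrsf8 and Tnfrsf25 were at 0 in several samples. Tnfrsf9 shares distal chromosome 4 with Tnfrsf1b, Tnfrsf8, Tnfrsf25, Tnfrsf14, Tnfrsf18 and Tnfrsf4, and the groups overlapped in each of these neighbours. On chromosome 6, Ltbr and Tnfrsf1a lie near Cd27, and the groups overlapped in all 3.

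Ligands of the 10 receptors included 10 genes in the table, of which 5 passed the filter. All 5 passed the limma test, with 3 higher and 2 lower, where 34.2% of all genes were called. Tnfsf9 and Tnfsf11 met the filter only through Ngfr KO, where they were high, so this count is partly set by the filter. Without a filter 5 of the 10 were called, with 2 higher and 3 lower, where 2126 of all 21176 genes were called. Tnfsf11, the gene of RANKL, which Tnfrsf11b binds as a decoy, had values of 0.397, 0.640, 0.396 and 1.78 in WT and 2.60, 3.73 and 3.96 in Ngfr KO. It rose by a log2 change of 1.35 (limma, SE 0.23 and adjusted p = 0.00165). The ratio of its mean values was 4.27, and 7.18 without WT replicate 4. Tnfsf13b, which encodes BAFF, the ligand of the Tnfrsf13c product, rose from 4.53 ± 1.67 (SD) over the 4 WT samples to 9.43 ± 1.28 (SD) over the 3 Ngfr KO samples, a log2 change of 0.97 (limma, SE 0.25 and adjusted p = 0.0112).

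Tnfsf9, the gene of the ligand for Tnfrsf9, had values of 0.152, 0.296, 1.00 and 0.00381 in WT and 1.64, 2.08 and 2.25 in Ngfr KO. WT samples were uneven, ranging from 1 read in replicate 4 to 231 reads in replicate 3. The log2 change was 1.18 (limma, SE 0.21 and adjusted p = 0.00199), but edgeR (adjusted p = 0.0904) and DESeq2 (adjusted p = 0.159) did not call it. Ngfr KO had 5.48 times the WT mean, or 13.3 times without WT replicate 3.

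Ltb, which encodes the membrane-anchoring chain of the Ltbr ligand, fell from 5.11 ± 1.26 (SD) over the 4 WT samples to 2.19 ± 0.33 (SD) over the 3 Ngfr KO samples, a log2 change of -0.92 (limma, SE 0.18 and adjusted p = 0.00330). Tnfsf10, the gene of TRAIL, which osteoprotegerin can bind, fell from 6.93 ± 1.75 to 2.34 ± 0.82, a log2 change of -1.25 (limma, SE 0.22 and adjusted p = 0.00166). Both fell alongside the endothelial markers given above, and the part of those cells was not tested. Tnfsf12, the ligand of the Tnfrsf12a product, did not pass the filter, with values of 0.453 to 0.634 in WT against 0.109 to 0.272 in Ngfr KO. Lta, Tnf and Cd40lg did not pass either and were at most 0.279, 0.817 and 0.626, and Tnfsf14 was at 0 in 4 samples. The ligand of Fas was not analysed here.

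Adaptors and regulators that act at the receptors numbered 22, of which 20 passed the filter and 4 were called by limma, 3 higher and 1 lower, where 34.2% of all genes were called. Their median log2 change was 0.14. Traf1, an adaptor that binds the tails of 4-1BB, CD40 and TNFR2 together with TRAF2, had values of 3.06, 4.69, 3.49 and 3.48 in WT and 12.8, 12.0 and 13.3 in Ngfr KO. It rose by a log2 change of 1.56 (limma, SE 0.16 and adjusted p = 0.000203), and samples within each genotype lay close together. Tank, a TRAF-binding scaffold, rose from 12.1 ± 2.7 (SD, n = 4) to 28.6 ± 1.0 (SD, n = 3), a log2 change of 1.20 (limma, SE 0.19 and adjusted p = 0.00117).

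Tradd, the adaptor of TNFR1, had a log2 change of 0.41 (limma, SE 0.14 and adjusted p = 0.0426), and Rnf31, the catalytic subunit of the linear ubiquitin ligase, one of -0.41 (limma, SE 0.14 and adjusted p = 0.0412). Neither was called by edgeR (adjusted p = 0.0550 and 0.0662). The Tradd call was lost without any 1 sample other than WT replicate 3 (limma adjusted p up to 0.158), and the Rnf31 call without any 1 Ngfr KO replicate (up to 0.141). Tradd met the filter only through Ngfr KO and Rnf31 only through WT, so that Rnf31 was no longer tested without WT replicate 1, 2 or 3. Traf2, Traf3, Traf5, Traf6, Ripk1, Casp8, Cflar, Birc2, Birc3, Map3k14, Tnfaip3 and Cyld were tested and not called, with log2 changes from -0.41 for Cyld to 0.42 for Traf2.

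Among 8 NF-κB subunits and inhibitors, Nfkbia and Relb were called higher and Nfkb1 lower by limma, where 34.2% of all genes were called, and the median log2 change was 0.15. Nfkbia, the inhibitor IκBα and itself an NF-κB target, rose from 112.5 ± 41.0 (SD) over the 4 WT samples to 233 ± 43 (SD) over the 3 Ngfr KO samples, a log2 change of 1.10 (limma, SE 0.29 and adjusted p = 0.0144). The call was lost without WT replicate 2 or Ngfr KO replicate 2 (limma adjusted p up to 0.0552). Nfkb1, the precursor of p50, fell by 0.70 on the log2 scale (limma, SE 0.15 and adjusted p = 0.00480). Relb, the subunit that acts downstream of the lymphotoxin β receptor, CD40 and the BAFF receptor, had a log2 change of 0.55 (limma, SE 0.19 and adjusted p = 0.0449). The groups overlapped, with WT replicate 4 just above Ngfr KO replicate 1. The call was lost with edgeR (adjusted p = 0.0616) and without WT replicate 1, 2 or 3 or Ngfr KO replicate 2 or 3 (limma adjusted p up to 0.197). Rela, Rel and Nfkb2 were not called.

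**Figure D5:**
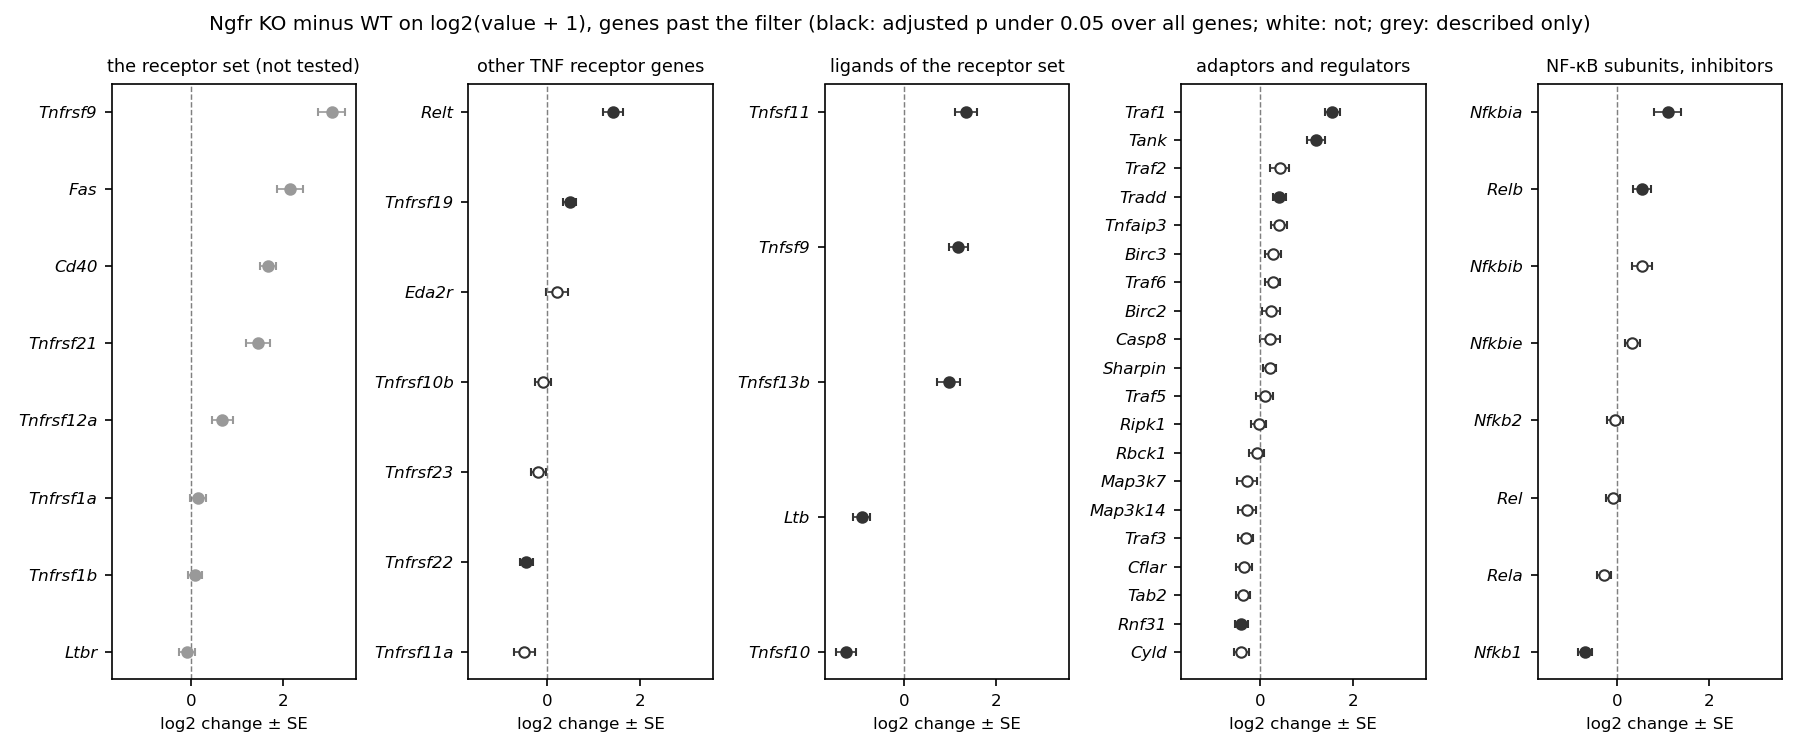
Difference between Ngfr KO and WT on log2(value + 1) (horizontal axis, point with SE) for genes past the filter: the receptor set, other receptors of the family, ligands, adaptors and regulators, and NF-κB subunits and inhibitors. Relt, Tnfsf11, Traf1 and Nfkbia have the highest values of their groups, at 1.42, 1.35, 1.56 and 1.10; black points passed the limma test, white ones did not, and grey ones are described without a test.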

How the data were processed

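What the authors deposited is a matrix of TMM-normalised signal, a scaling by library size and composition, with genes in rows and samples in columns. Per the submitters' processing notes the build was mm10 and bcl2fastq 2.20.0.422 was used. The aligner, counter and annotation are not given in the sources used here. Per the labels' protocols, cDNA came from SMART-Seq v4 and libraries from Nextera XT. Reads were recovered because 100% of entries equalled a whole number of steps (within 0.05 reads). Coordinates and exon lengths came from GENCODE M21 (GRCm38), which matched 21118 identifiers and not 58.

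Ngfr KO was compared with WT by limma 3.58.1 in R 4.3.3 (eBayes with trend) on log2(value + 1), for genes reaching 1 in 3 or more samples, with Benjamini-Hochberg adjustment over all genes tested and a threshold of 0.05. That pseudocount understates changes of low genes. Groups came from the sample titles. Genes named are the 10 receptors, Ngfr, called genes of the 4 pathway lists, 5 genes correlated with Tnfrsf9, and leading markers; others were named after their values were seen. The receptors and lists were chosen with earlier results of these data known. Alternatives were other pseudocounts, filters and scalings, robust eBayes, edgeR 4.0.16 and DESeq2 1.42.0 on the recovered reads, a replicate block, and leaving out each sample. The scripts were tested on simulated data. Amplified reads without molecular identifiers are not independent molecules, so read numbers speak for counting error only. A marker gene of germinal centre B cells is not reported here and was left out of their sum.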

Additional observations from a re-analysis of the deposited data

Results flagged for a closer look

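In 37 values checked across the 4 WT samples, 1 sample lay apart from the rest by Dixon's criterion in 3, where chance gives 1.85. Fas stood at 3.48 in WT replicate 1, the other WT samples at 9.28 to 9.86. Tnfrsf12a stood at 2.01 in WT replicate 3, the others at 0.797 to 0.914. The summed markers of regulatory and activated T cells were 0.817 in WT replicate 3 and 2.11 to 2.20 in the others.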

How the results depend on the processing

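Across 18 alternatives the number of genes called stayed within 1.5 times of 2844, except for 535 with the filter raised to 10 in 3 samples and except when single samples were left out (1614 to 3006; 1870 without WT replicate 1, 1803 without Ngfr KO replicate 1 and 1614 without Ngfr KO replicate 2). The called ligands numbered 4 to 6 under every alternative that tested any of them, and 5 whichever sample was left out. With no filter, 2126 of all 21176 genes were called. Called genes among the other receptors were 3, but 1 without a filter and 1 to 4 with a sample left out (1 without WT replicate 1 or any 1 Ngfr KO replicate). Of the adaptors and regulators 4 were called, but 2 without a filter, with the filter at 10, with robust eBayes or with edgeR, and 2 to 4 with a sample left out (2 without WT replicate 1 or 2 or Ngfr KO replicate 1 or 2). Of the NF-κB genes 3 were called, but 1 without a filter or with the filter at 10, and 1 to 3 with a sample left out (1 without WT replicate 2 or Ngfr KO replicate 2). The cause of these shifts was not tested, except that the filter at 10 tests fewer genes (1297) and leaves none of the other receptors and ligands. No list gene called by limma changed direction in any of 255 alternative values, and 47 of these lost the call. Tnfrsf9, Cd40, Fas and Tnfrsf21 kept their direction throughout, with log2 changes of 1.70 to 4.19, 0.74 to 2.66, 1.72 to 2.30 and 0.89 to 1.78. Those of Ltbr were -0.19 to 0.01 and of Tnfrsf1a -0.02 to 0.31. Replicate numbers appear in the titles of both genotypes. Deviations of same-numbered samples from their group means had correlations of 0.298, -0.0593 and -0.0108. Differently numbered samples were not compared, so these values cannot show whether the numbers pair the samples. The main fit used no pairing. With the replicate number as a block, 2717 genes were called, with 3 other receptors, 5 ligands, 4 adaptors and 4 NF-κB genes; Tradd of the adaptors was then not called. Depth limits what can be said of Tnfrsf11b in WT, with 4 to 43 reads.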
